A study of Mus musculus with 15 samples.

Results

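Presynaptic vesicle and release genes were followed in thalamic tissue of mice with and without the 5xFAD amyloid transgenes. The set held 41 genes, listed by name for their place in the synaptic vesicle cycle, out of 29659 genes in each library. All 41 were in the files and all 41 passed the filter on low values, as did 15804 genes in all. A total of 4 groups of 4.5-month-old mice were measured by bulk polyA RNA sequencing. The 5EL group (n = 5) carried 5xFAD, homozygous human APOE4 and intact Lilrb4a, and the 5ELKO group (n = 4) carried 5xFAD and APOE4 and lacked Lilrb4a (Lilrb4a-/-). The EL group (n = 3) carried APOE4 and intact Lilrb4a without 5xFAD, and the ELKO group (n = 3) carried APOE4 without 5xFAD and lacked Lilrb4a. By these labels human APOE4 was shared by every mouse, but mouse Apoe was high in the library labelled ELKO replicate 1, which goes against its label. In 5xFAD mice, mutant human amyloid precursor protein and presenilin are expressed from a neuronal Thy1 promoter. The question for this gene set was whether synaptic transcripts moved with 5xFAD at this age.

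A nerve terminal stores transmitter in vesicles and releases it when calcium enters. Filled vesicles are tethered near the release site by synapsins and by the large scaffolds of the active zone. They are made ready for fusion by Munc13 and RIM proteins. Fusion is carried out by the SNARE proteins syntaxin, SNAP-25 and synaptobrevin, held in check by complexins and triggered by synaptotagmins that bind calcium. Vesicle membrane is then taken back by endocytosis and refilled by transporters. In the thalamus most relay neurons are glutamatergic and use the vesicular transporter encoded by Slc17a6, while Slc17a7 (VGLUT1) is typical of cortical neurons and of some other thalamic cells. In a bulk library, fewer cells of a type and less RNA per cell cannot be told apart, and transcripts of incoming axons lie mostly in cell bodies elsewhere.

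Every value below is on the log2 scale of the deposited files, and values of a group are given in replicate order. Differences are therefore differences of log2 values, which the transform may have shrunk for low genes. Correlations of libraries over all genes ran from 0.9986 to 0.9998 across 105 pairs, and 0 pairs had identical values. Such correlations are set mostly by differences in level between genes, so they say little about how alike libraries were gene by gene. The 7 Lilrb4a-/- libraries had Lilrb4a values up to 2.33, and the 8 intact ones started at 2.34, a gap smaller than the spread among the intact libraries. Mouse Apoe stood at 10.9 in 1 library, the one labelled ELKO replicate 1, where the remaining 14 lay from 5.92 to 6.37. That library entered the fits. Member counts at an unadjusted p under 0.05 were the same without it. They were 0 in the averaged 5xFAD effect, 5ELKO against ELKO and ELKO against EL, and 2 in 5EL against EL. The shares of all genes rose from 6.57% to 11.3% in the averaged effect and from 2.37% to 5% in 5ELKO against ELKO. They went from 2.35% to 2.2% in ELKO against EL and from 7.7% to 7.69% in 5EL against EL. The 5EL against EL difference does not use that library. The mean of 10 thalamic relay neuron markers lay between 12.2 and 12.7 in all 15 libraries. Choroid plexus markers were high in 5EL replicate 1 (mean 7.82) and ELKO replicate 2 (8.21) against 5.51 to 6.09 elsewhere. Hepatocyte markers were high in EL replicate 1 (mean 5.13) and in the 4 5ELKO libraries (4.71 to 5.09), with 4.36 to 4.54 in the others.

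Levels per kilobase were taken over all annotated exon bases, whether or not the tissue uses them, so small gaps between genes do not order them. The highest mean level over all libraries was that of Cplx1, at 12.64, which encodes a complexin that clamps the SNARE complex. Its library range, 12.31 to 13.08, overlapped that of Snap25, 12.39 to 12.83. Snap25 followed at 12.51, Rab3a at 12.01 and Vamp2 at 11.95, all genes of the core release machinery. The lowest members per kilobase were Syn3 at 3.18, Sv2c at 5.45, Syt6 at 6.06, Syt2 at 6.32 and Synpr at 6.37. Of these, Sv2c, Syt6, Syt2 and Synpr, but not Syn3, were also among the 5 members with the largest within-group SD. Within groups, the pooled SD of the log2 value was lowest for Vamp2 (0.045) and highest for Syt6 (0.770), and its median was 0.115 over the 41 members and 0.098 over all genes tested. A total of 6 members shared over 5% of their exon bases with another gene. Exons of Syp share 16.8% of their bases with Gm14703, those of Syt4 14.5% with Gm26658 and those of Syn3 14.1% with Timp3. Exons of Rab3b share 8.995% with 8030443G20Rik, those of Syt6 8.67% with Atg4a-ps and those of Syt7 5.13% with Gm26859. The counting took no account of strand, so reads there could not be told apart.

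No member passed the test for 5xFAD, nor for loss of Lilrb4a or the interaction: the count at an adjusted p under 0.05 was 0 of 41 in all 6 comparisons fitted. In the effect of 5xFAD averaged over both Lilrb4a genotypes (limma, adjusted for 15804 genes by Benjamini-Hochberg), 0 of 41 members had an adjusted p under 0.05, and among all genes tested 0% did. At an unadjusted p under 0.05 the count was again 0 of 41, where 6.57% of all genes (1038) passed. The median difference of the members was 0.015 and that of all genes -0.00055. In absolute size the medians were 0.047 for the members and 0.046 for all genes. A total of 26 members lay above 0 and 15 below, from -0.19 for Slc17a7 to 0.46 for Rab3b. For 26 members the 95% confidence interval of the difference lay wholly within a 1.2-fold change either way (±0.263), which was 63.4% of the members and 85.3% of all genes. The other 15 members had intervals that reached beyond that margin. The 9 libraries with 5xFAD and the 6 without overlapped for all 41 members, and 0.038% of all genes had no overlap.

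**Figure D1:**
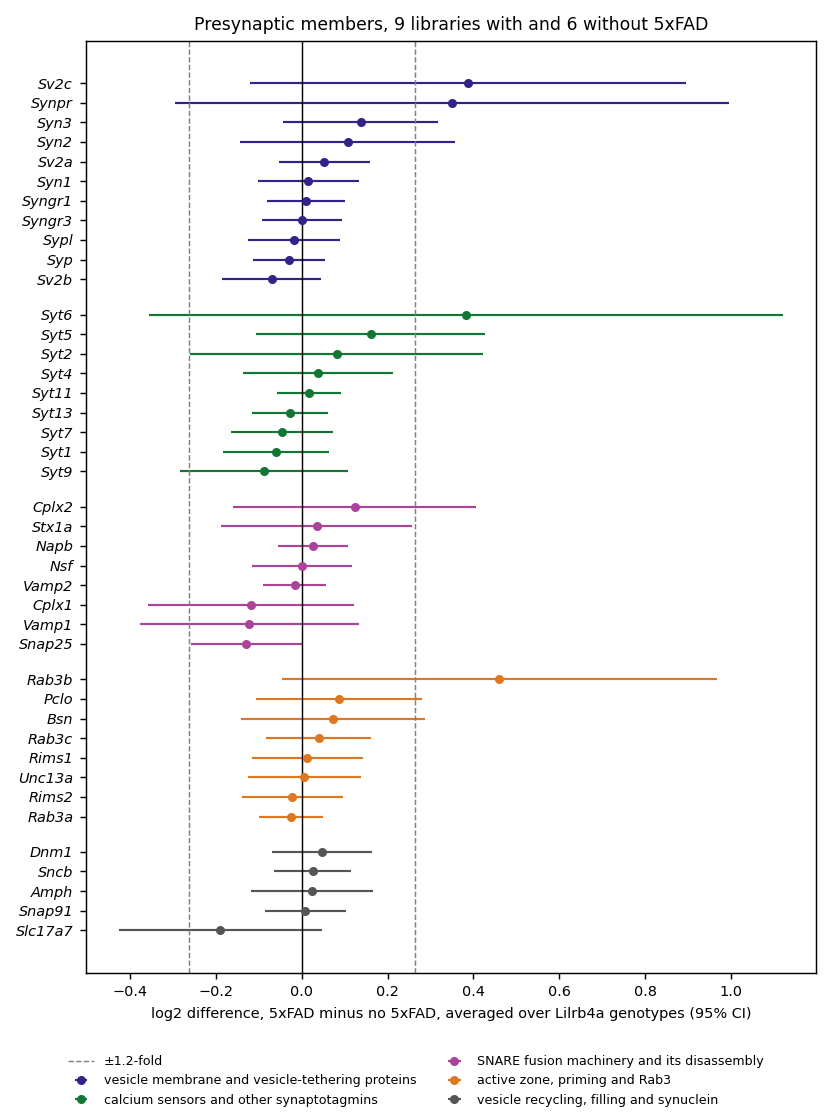
The log2 difference of each of the 41 members between libraries with and without 5xFAD, averaged over Lilrb4a genotypes, is plotted as a point with its 95% confidence interval, coloured and grouped by role. Dashed lines mark a 1.2-fold change, and 26 intervals lie between them. All 41 intervals include 0, and the widest belong to Syt6, Synpr, Rab3b and Sv2c.

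Among the 11 genes of vesicle membrane and tethering proteins, 7 differences were above 0 and 4 below, with a median of 0.015 and 0 at an unadjusted p under 0.05. Syp encodes synaptophysin, the standard marker of synaptic vesicles. Its values were 14.31, 14.21 and 14.18 in EL, 14.25, 14.18 and 14.19 in ELKO, 14.24, 14.11, 14.14, 14.21 and 14.18 in 5EL, and 14.23, 14.30, 14.15 and 14.13 in 5ELKO. The 4 groups overlapped, and the averaged difference was -0.03 with a 95% interval from -0.11 to 0.05. Sv2a, the ubiquitous SV2 vesicle glycoprotein, differed by 0.05 and Sv2b by -0.07 (interval -0.19 to 0.05). Syn1 and Syn2 encode synapsins, which tether vesicles to each other and to actin, and differed by 0.02 and 0.11. Syn3, the least abundant synapsin gene here, had values of 6.85, 6.74 and 6.45 in EL, 6.94, 6.80 and 6.53 in ELKO, 6.74, 6.91, 6.69, 6.96 and 7.15 in 5EL, and 6.92, 6.70, 6.89 and 6.78 in 5ELKO. Its averaged difference was 0.14 (interval -0.04 to 0.32), and EL replicate 3 held its lowest value.

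Sv2c, a vesicle glycoprotein gene of restricted expression in the brain, gave one of the larger differences. It lies on chromosome 13 from 95954594 to 96132577 on the minus strand (GRCm38). Sv2c was 8.96, 8.25 and 7.48 in EL, 9.16, 9.13 and 7.93 in ELKO, 8.58, 9.49, 8.68, 9.10 and 9.11 in 5EL, and 8.84, 8.37, 9.25 and 8.57 in 5ELKO. Its lowest values were those of EL replicate 3 and ELKO replicate 3, and the groups overlapped. The averaged difference was 0.39 ± 0.24 (SE), with an unadjusted p of 0.124 and an adjusted p of 0.693 by limma. Without EL replicate 3 and ELKO replicate 3 it was -0.0016, and without EL replicate 1 it was 0.57 (unadjusted p = 0.0239, adjusted p = 0.239 by limma).

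Synaptotagmins made up 9 members, of which 5 differed above 0 and 4 below, with a median of 0.017 and 0 at an unadjusted p under 0.05. Syt1 encodes the fast calcium sensor of most forebrain synapses. Its values were 14.68, 14.79 and 14.77 in EL, 14.78, 14.56 and 14.67 in ELKO, 14.65, 14.65, 14.44, 14.68 and 14.77 in 5EL, and 14.79, 14.72, 14.55 and 14.56 in 5ELKO. The averaged difference of Syt1 was -0.06 (interval -0.18 to 0.06). Syt2, the fast sensor of many brainstem and inhibitory synapses, ranged from 8.75 in 5EL replicate 3 to 9.88 in 5EL replicate 4, so that the lowest and the highest library came from the same group. Syt11 had the narrowest interval of the family (-0.06 to 0.09), around a difference of 0.02.

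The 8 genes of SNARE fusion and its disassembly split evenly, with 4 differences above 0 and 4 below and a median of -0.0082. Snap25 encodes the plasma membrane SNARE with a pair of helices in the fusion complex and lies on chromosome 2 from 136713453 to 136782428 on the plus strand. Its values were 15.19, 15.48 and 15.59 in EL, 15.24, 15.23 and 15.41 in ELKO, 15.15, 15.17, 15.16, 15.30 and 15.31 in 5EL, and 15.29, 15.29, 15.18 and 15.19 in 5ELKO. EL replicates 2 and 3 and ELKO replicate 3 stood above all 9 libraries with 5xFAD, and the other 3 libraries without 5xFAD lay among them. The averaged difference was -0.13 ± 0.061 (SE), the smallest unadjusted p among the members at 0.0510, with an adjusted p of 0.693 by limma. A two-sided exact permutation test within Lilrb4a genotypes gave p = 0.0474, where the smallest p that test can give is 0.00051. Leaving out EL replicate 3 and ELKO replicate 3 together moved the difference to -0.057. Without EL replicate 1 it was -0.19 (unadjusted p = 0.00261, adjusted p = 0.170 by limma).

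The other SNARE genes had differences nearer 0 or wider intervals. Vamp2 encodes synaptobrevin 2, the main vesicle SNARE of the forebrain, and its values were 13.98, 13.91 and 13.79 in EL, 13.89, 13.89 and 13.90 in ELKO, 13.88, 13.82, 13.85, 13.88 and 13.84 in 5EL, and 13.89, 13.88, 13.89 and 13.93 in 5ELKO. The Vamp2 difference of -0.02 (interval -0.09 to 0.06) had one of the narrowest intervals. Nsf, the ATPase that takes spent SNARE complexes apart, differed by 0.00034 (interval -0.12 to 0.12), and Napb, its adaptor, by 0.03. Stx1a, the plasma membrane syntaxin, differed by 0.03 (interval -0.19 to 0.26). Cplx1, Cplx2 and Vamp1 differed by -0.12, 0.12 and -0.12, each with an interval beyond the 1.2-fold margin on at least one side. These last 3, and the members described below outside the naming rule, were chosen after their values were seen.

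Active zone, priming and Rab3 genes numbered 8, of which 6 differed above 0 and 2 below, with a median of 0.026 and 0 at an unadjusted p under 0.05. Bsn and Pclo encode the giant scaffolds bassoon and piccolo and differed by 0.07 and 0.09. Rims1, Rims2 and Unc13a, whose products prime vesicles, differed by 0.01, -0.02 and 0.0053, with intervals inside the margin. Rab3a, the main vesicle GTPase, differed by -0.03 (interval -0.10 to 0.05). Its relative Rab3b, on chromosome 4 from 108879063 to 108943324, had the largest difference of all members. Rab3b was 9.12, 8.35 and 7.24 in EL, 8.67, 8.99 and 8.38 in ELKO, 9.01, 9.06, 9.36, 8.31 and 8.33 in 5EL, and 8.67, 9.12, 9.13 and 9.17 in 5ELKO. The EL group alone spread from 7.24 to 9.12, and its range took in libraries of every other group. The difference was 0.46 ± 0.24 (SE; unadjusted p = 0.0715, adjusted p = 0.693 by limma), and it was 0.21 without EL replicate 3 and 0.14 without EL replicate 3 and ELKO replicate 3. It was larger in other fits, at 0.68 without EL replicate 1 (unadjusted p = 0.00475, adjusted p = 0.179 by limma). Without 5EL replicate 4 or without 5EL replicate 5 it was 0.52 (unadjusted p = 0.0455 and 0.0473, limma). With the replicate number as a block over all 15 libraries it was 0.60 (unadjusted p = 0.0413, adjusted p = 0.563 by limma). The sources used here do not say what that number shares across groups.

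Recycling, filling and synuclein genes gave the lowest difference of the set. Slc17a7, which fills vesicles with glutamate, lies on chromosome 7 from 45163949 to 45176142. It was 11.96, 12.45 and 12.61 in EL, 12.23, 12.03 and 12.11 in ELKO, 11.83, 12.11, 11.86, 12.29 and 12.32 in 5EL, and 12.33, 11.79, 12.001 and 11.88 in 5ELKO. EL replicates 2 and 3 were its highest libraries, and EL replicate 1 lay among those with 5xFAD. Its averaged difference was -0.19 ± 0.11 (SE; unadjusted p = 0.107, limma). Without EL replicate 1 it was -0.28 (unadjusted p = 0.0127, adjusted p = 0.204 by limma). Without 5ELKO replicate 1 it was -0.25 (unadjusted p = 0.0349, adjusted p = 0.726 by limma). In no other fit did this effect of Slc17a7 pass at an unadjusted p under 0.05. Dnm1, the GTPase that pinches off vesicles, differed by 0.05, Amph by 0.02, Snap91 by 0.0081 and Sncb by 0.03, all with intervals inside the margin.

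**Figure D2:**
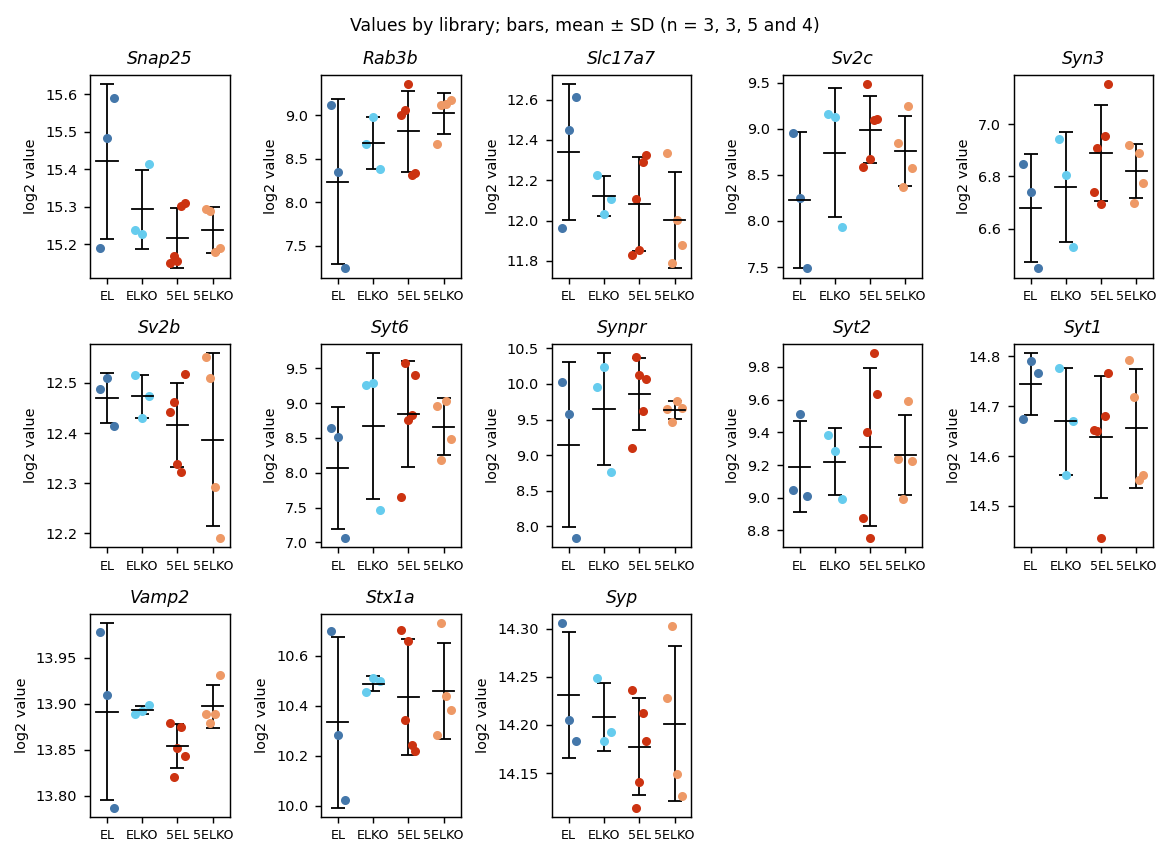
Log2 values of the 13 members chosen by the naming rule are plotted by group, with each point 1 library and bars showing the mean and SD (n = 3 for EL and ELKO, 5 for 5EL and 4 for 5ELKO). The EL points of Snap25, Rab3b, Stx1a and Slc17a7 spread across most of the range of the other groups.

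Within intact Lilrb4a, 5EL against EL gave 2 of 41 members at an unadjusted p under 0.05, where 7.7% of all genes passed, and 0 members and 0% of genes at an adjusted p under 0.05. Snap25 was 15.22 ± 0.081 (SD) in 5EL and 15.42 ± 0.21 in EL, a difference of -0.20 (unadjusted p = 0.0288, adjusted p = 0.630 by limma). Its two-sided exact permutation p was 0.0893, and the smallest that 5 libraries against 3 can give is 0.0179. Sv2c was 8.99 ± 0.37 in 5EL and 8.23 ± 0.74 in EL, a difference of 0.76 (unadjusted p = 0.0360, adjusted p = 0.630 by limma), with an exact permutation p of 0.107. The 5EL and EL libraries overlapped for all 41 members, and 3.26% of all genes had no overlap. The count at an unadjusted p rested on single libraries. Without EL replicate 1 it was 12 of 41 (29.3%), where the share of all genes also went up, to 20.3%. Without EL replicate 2, EL replicate 3 or 5EL replicate 2 it was 0, where 6.3%, 2.24% and 5.84% of all genes passed. In each of these fits 0 members had an adjusted p under 0.05. Markers of thalamic relay neurons moved with Snap25 in this comparison: 9 of 10 lay below 0 in 5EL against EL, with a median of -0.24, and 5 were lower at an unadjusted p under 0.05. The mean of the relay markers was 12.46 to 12.72 in EL and 12.23 to 12.45 in 5EL, and its part in the Snap25 difference was not tested.

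In mice without Lilrb4a, 5ELKO against ELKO gave 0 of 41 members at an unadjusted p under 0.05 against 2.37% of all genes. The member with the smallest p was Sv2b at a difference of -0.09 (unadjusted p = 0.286, limma), and Rab3b had the largest difference, 0.34 (interval -0.39 to 1.07). Snap25 was 15.24 ± 0.062 in 5ELKO and 15.29 ± 0.11 in ELKO. The interaction of 5xFAD with Lilrb4a gave 0 members against 2.73% of all genes. It was 0.15 for Snap25 (interval -0.11 to 0.41), -0.74 for Sv2c (interval -1.76 to 0.27) and -0.73 for Synpr (interval -2.02 to 0.56). A difference in the 5xFAD effect between Lilrb4a genotypes was therefore not shown for any member. For the interaction, 12 of 41 intervals (29.3%) lay inside the 1.2-fold margin, against 39.2% of all genes.

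Loss of Lilrb4a was compared in both backgrounds. In 5ELKO against 5EL, 0 of 41 members had an unadjusted p under 0.05, against 1.83% of all genes. Intervals of 25 members (61.0%) lay inside the margin, against 82.8% of all genes. Cplx2 had the smallest p, with 11.47 ± 0.19 in 5ELKO and 11.68 ± 0.34 in 5EL, a difference of -0.21 (unadjusted p = 0.240, limma). In ELKO against EL, 0 of 41 members passed at an unadjusted p under 0.05, against 2.35% of all genes. EL and ELKO libraries of the same replicate number were taken as pairs, an assumption that was not checked against libraries of unlike number. With the pair as a block in a fit of these 6 libraries, 0 members had an adjusted p under 0.05. At an unadjusted p under 0.05, 3 of 41 members (7.32%) passed, where 7.04% of all genes did. They were Syt6 (difference 0.60), Sv2c (0.51) and Synpr (0.50). Without EL replicate 1 the unblocked count was 9 (22% of the members, against 11.6% of all genes), and without ELKO replicate 3 it was 2 (4.88%, against 8.7%).

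EL replicate 3 held the lowest value of the 15 libraries for 22 of 41 members and the highest for 6. Over all genes tested, it was lowest for 23.9% and highest for 21.2%. The members it was highest for included Cplx1, Vamp1, Snap25 and Slc17a7, and those it was lowest for included Syt6, Synpr, Sv2c, Rab3b, Syt5, Syn2 and Stx1a. Next were 5EL replicate 3, lowest for 8 members, and 5ELKO replicate 2, highest for 9. The mean over all members was 11.98 in EL replicate 3, 12.08 in ELKO replicate 3, while the remaining 13 libraries lay between 12.16 and 12.31.

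**Figure D3:**
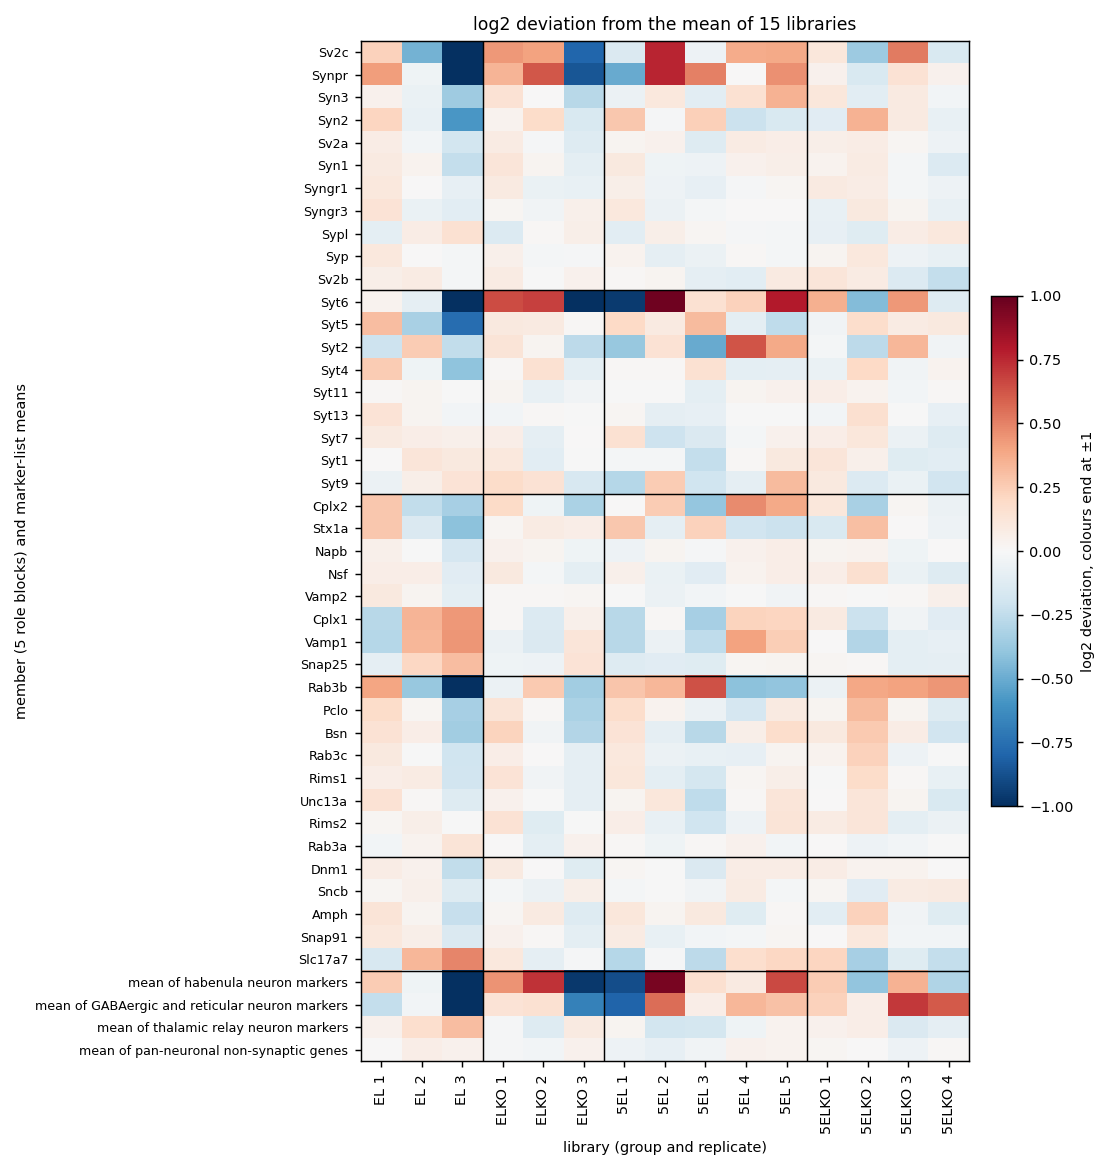
Each row is a member, in blocks by role, and the bottom rows are means of marker lists. Colour gives the log2 deviation of each library (columns, by group) from the mean of 15 libraries, and colours end at ±1. Blue marks values below the mean of a row. EL replicate 3 is the lowest library in 22 of the member rows, and the rows of Syt6, Synpr and Sv2c resemble the row of habenula markers.

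One set of members varied together with markers of the habenula, a small nucleus that adjoins the thalamus. Syt6 encodes a synaptotagmin and lies on chromosome 3 from 103575231 to 103645569, and Synpr encodes synaptoporin, a relative of synaptophysin, on chromosome 14 from 13284780 to 13616340. Syt6 was 8.64, 8.52 and 7.06 in EL, 9.26, 9.29 and 7.46 in ELKO, 7.65, 9.58, 8.76, 8.83 and 9.40 in 5EL, and 8.96, 8.18, 9.04 and 8.48 in 5ELKO. Synpr was 10.03, 9.57 and 7.84 in EL, 9.95, 10.23 and 8.76 in ELKO, 9.11, 10.38, 10.12, 9.62 and 10.07 in 5EL, and 9.65, 9.46, 9.76 and 9.66 in 5ELKO. Both were lowest in EL replicate 3, ELKO replicate 3 and 5EL replicate 1. The same 3 libraries had the lowest means of the 9 habenula markers (7.17, 7.51 and 7.59, against 8.08 to 9.42 in the others) and of the 8 GABAergic and reticular markers (8.55, 9.28 and 9.16, against 9.72 to 10.7).

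Across the 15 libraries the correlation of Syt6 with the habenula mean was r = 0.988 and rho = 0.982, each with a permutation p of 1e-05, the smallest that 100000 resamples can give. The r was 0.977 without the 2 libraries farthest from the median and 0.992 for deviations from group means. For Synpr r was 0.924 (0.906 without those 2) and rho 0.896, and for Sv2c r was 0.899 (0.788) and rho 0.911. The adjusted permutation p of r was at most 6.67e-05 for all 3 over the 10 relations computed, and that of rho was 3.33e-05. The 5 members correlated were those with the largest within-group SD in these same values, and the lists were chosen with earlier results known. The adjustment does not cover that choice, and the share of all genes with a like r was not computed. Syt2 gave r = 0.524 (adjusted permutation p = 0.0509; 0.443 without those 2) and rho = 0.582 (adjusted permutation p = 0.0363). Rab3b gave r = 0.452 (adjusted permutation p = 0.0891), which turned to -0.156 without the 2 farthest libraries, and rho = 0.157. With the GABAergic mean, the 5 members had r from 0.572 for Syt2 to 0.847 for Syt6, all at an adjusted permutation p of at most 0.0324, and r from 0.310 to 0.667 without the 2 farthest libraries. Their rho ran from 0.289 for Rab3b (adjusted permutation p = 0.325) to 0.700 for Syt6. All 9 habenula markers and all 8 GABAergic markers passed the filter on low values, and none was at 0. The log2 of the summed habenula markers ranged from 10.5 to 12.2 in EL, 10.9 to 12.7 in ELKO, 11.1 to 13.0 in 5EL and 11.6 to 12.4 in 5ELKO. For the GABAergic markers the ranges were 13.3 to 13.9, 13.5 to 13.9, 13.5 to 14.2 and 13.8 to 14.3. All 9 habenula markers had averaged 5xFAD differences above 0 (median 0.27) with 0 at an unadjusted p under 0.05, and all 8 GABAergic markers did (median 0.63) with 5. With the habenula mean as a covariate, an alternative chosen after seeing the data, the averaged 5xFAD difference was 0.13 for Syt6, 0.14 for Synpr and 0.23 for Sv2c, against 0.38, 0.35 and 0.39 without it. Smaller as they were, the differences of Syt6 (unadjusted p = 0.0353, adjusted p = 0.848 by limma) and Sv2c (unadjusted p = 0.0486, adjusted p = 0.853) passed at an unadjusted p under 0.05 with the covariate, and neither did without it. For Sv2c in 5EL against EL, the SE of the difference was 0.329 without a covariate. It was 0.152 with the habenula covariate and 0.135 with the cortex and hippocampus covariate. Correlations with other marker lists, that of cortex and hippocampus among them, were not computed. Whether the relation is particular to the habenula was therefore not tested. The part of the marked cells in the values of Syt6, Synpr and Sv2c was otherwise not tested.

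The upstream 250 bases of these genes and of the pair described next are shown to place them in their promoters (RefSeq, GRCm38.p6), with every GC box (GGGCGG on either strand) in capitals. The Syt6 stretch is chr3:103574995-103575244 on the plus strand, the first of 3 listed starts, and the Synpr stretch is chr14:13284530-13284779 on the plus strand, the first of 2. The Syt6 stretch lies before the RefSeq start but runs past 103575231, the GENCODE gene start given above.
Syt6: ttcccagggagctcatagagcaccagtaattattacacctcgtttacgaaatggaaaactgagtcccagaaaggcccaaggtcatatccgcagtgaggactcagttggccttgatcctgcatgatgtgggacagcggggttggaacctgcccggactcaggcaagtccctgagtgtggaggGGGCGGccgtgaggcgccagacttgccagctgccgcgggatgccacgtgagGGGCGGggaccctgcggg
Synpr: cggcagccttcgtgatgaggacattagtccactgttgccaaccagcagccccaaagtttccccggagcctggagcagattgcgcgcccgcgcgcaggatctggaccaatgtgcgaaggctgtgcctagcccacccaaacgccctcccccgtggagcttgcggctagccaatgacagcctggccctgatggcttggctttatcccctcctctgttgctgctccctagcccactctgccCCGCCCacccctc
The Stx1a stretch is chr5:135023232-135023481 on the plus strand, and the Cplx1 stretch is chr5:108550028-108550277 on the minus strand, printed 5′ to 3′.
Stx1a: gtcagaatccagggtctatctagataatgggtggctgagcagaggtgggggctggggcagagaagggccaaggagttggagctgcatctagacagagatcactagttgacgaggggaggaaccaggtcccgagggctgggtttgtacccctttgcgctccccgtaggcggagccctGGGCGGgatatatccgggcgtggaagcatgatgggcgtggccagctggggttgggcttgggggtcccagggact
Cplx1: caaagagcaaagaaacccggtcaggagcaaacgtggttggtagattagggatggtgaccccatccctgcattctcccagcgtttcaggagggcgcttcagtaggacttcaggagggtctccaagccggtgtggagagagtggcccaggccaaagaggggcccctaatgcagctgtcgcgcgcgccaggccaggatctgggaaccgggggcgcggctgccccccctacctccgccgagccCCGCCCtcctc
Promoters of 32 members were listed, and 24 of them (75%) held a GC box before any of their listed starts, against 35.4% of 27025 genes. Those 27025 include genes that did not pass the filter on low values, and the share among the genes tested was not computed. Genes with more listed starts had more chances to hold a motif, and numbers of starts were not compared. Other motifs counted were a TATA box (6.25%, against 14.3%), a CCAAT box (25%, against 37.5%) and a cAMP response element (3.1%, against 1.8%). The median GC content of the window was 61.2% for the members and 52% for all genes. All 4 stretches above held at least 1 GC box. Promoters of Syt13, Syngr3, Syt7, Syt4, Syt5, Rims2, Syn3, Snap25 and Vamp2 were not used here.

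A second pattern set members of the release machinery against each other. Cplx1 was 13.49, 14.11 and 14.21 in EL, 13.79, 13.64 and 13.83 in ELKO, 13.50, 13.78, 13.44, 14.00 and 13.99 in 5EL, and 13.87, 13.56, 13.74 and 13.66 in 5ELKO. Stx1a was 10.70, 10.28 and 10.02 in EL, 10.45, 10.51 and 10.50 in ELKO, 10.70, 10.34, 10.66, 10.24 and 10.22 in 5EL, and 10.28, 10.73, 10.44 and 10.38 in 5ELKO. The 4 libraries lowest in Cplx1, which were 5EL replicates 1 and 3, EL replicate 1 and 5ELKO replicate 2, were the 4 highest in Stx1a. They were also the 4 highest in Syn2 (13.72 to 13.85, against at most 13.69 in the other 11), in Syt5 (10.77 to 10.91, against at most 10.69) and in Amph (12.41 to 12.54, against at most 12.40). They were the 4 lowest in Vamp1 (11.89 to 11.93, against at least 12.04). Among all genes tested, 0.614% had these libraries as their highest 4 and 0.190% as their lowest 4, against 4 and 2 of the 41 members with Cplx1 itself counted. The 4 libraries came from 3 groups, with and without 5xFAD and with and without Lilrb4a. They were defined by Cplx1, a member, and picked after the values were seen, so the counts beside the shares of all genes are not a test.

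**Figure D4:**
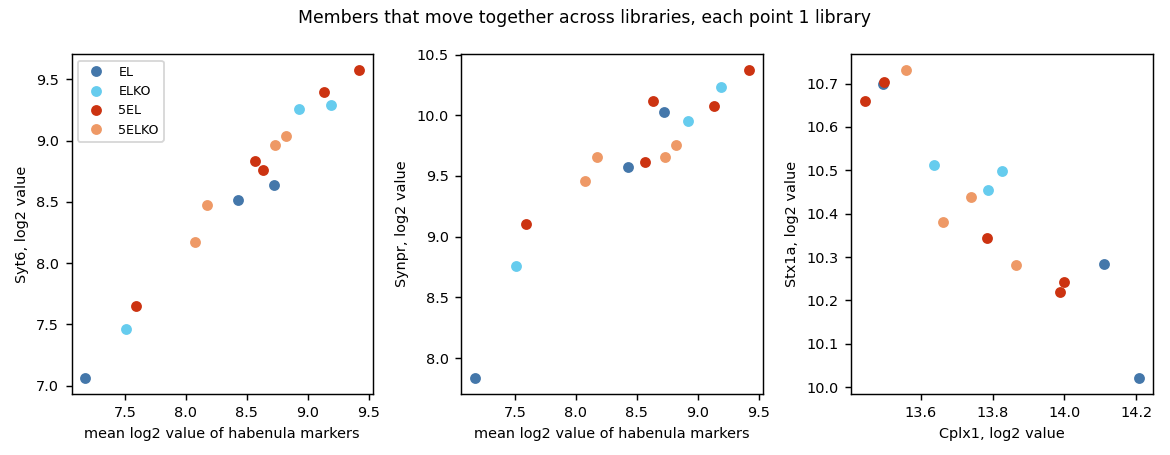
Each point is 1 library, coloured by group. Syt6 and Synpr (vertical axes) rise with the mean of the habenula markers across libraries of every group, and Stx1a falls as Cplx1 rises, with the 4 libraries lowest in Cplx1 at the top left.

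Other gene lists were read from the same fit. Of 52 other presynaptic genes, 1 was higher at an unadjusted p under 0.05 in the averaged 5xFAD effect and 0 were lower, with a median difference of 0.020. That gene was Slc32a1, the vesicular transporter for GABA and glycine, at 0.81 (interval 0.16 to 1.45), and it is also one of the GABAergic markers. Slc17a6, the transporter of most relay neurons, differed by -0.10 (interval -0.21 to 0.0090). Of the 10 relay neuron markers 1 was lower at an unadjusted p, Ramp3, with a median of -0.12. Of 20 postsynaptic density genes 1 passed, Dlg2, and the median was -0.011, and of 17 neuronal genes outside the synapse 0 passed, with a median of -0.042. In the same fit, 14 of 15 markers of plaque-associated microglia passed at an unadjusted p, all higher with 5xFAD, with a median of 0.37 and 0 at an adjusted p under 0.05. The mean of that list was 7.31 to 7.46 in the 6 libraries without 5xFAD and 7.38 to 7.98 in the 9 with it. Gfap, the intermediate filament gene of reactive astrocytes, differed by 1.08 (unadjusted p = 0.000208, limma).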

How the data were processed

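Bulk polyA RNA of dissected thalamus from 15 mice was sequenced by the authors. Per the labels and the study's methods, reads were checked with FastQC 0.11.9, trimmed with Trimmomatic 0.39, aligned to GRCm38 with HISAT2 2.2.1, sorted with SAMtools 1.16.1 and counted as read pairs per gene name, without strand, with featureCounts 2.0.3, and DESeq2 1.38.3 was used downstream. The authors deposited log2 values for 29659 genes per library, from -2.27 to 18.98. The transform is not given in the sources used here; low genes are drawn together as by a regularised log, which shrinks their differences. The deposited values hold no counts, so no interval from counts is given; read totals that the study lists for 5EL and 5ELKO libraries were not used here.

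Groups came from the sample titles, and age and genotype details from the study's methods. Nothing used here says how mice were assigned to litters or extraction batches, so p-values measure the spread among these libraries. The log2 values were fitted with limma 3.58.1 in R 4.3.3 (group means of all 15 libraries, eBayes with a trend), on 15804 genes at a log2 value of at least 3.32 in 3 or more libraries, with Benjamini-Hochberg adjustment over all of them. The effects were 5xFAD averaged over Lilrb4a genotypes, 5xFAD within each, Lilrb4a loss within each background, and the interaction. Single genes were also compared by two-sided exact permutation tests, and correlations by 100000 permutations. The script was tested on simulated data. Coordinates and exon lengths came from GENCODE M21, promoters from RefSeq (GRCm38.p6). Figures were drawn with matplotlib 3.10.9.

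Members, gene lists and alternatives were chosen with earlier results of these data known. Named were members with an adjusted p under 0.05 (0), the 6 with the smallest p in the averaged effect, the 5 with the largest within-group SD, 6 core genes, and the 3 with the smallest interaction p, 13 in all.

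Deviations from group means over all genes tested were correlated between EL and ELKO libraries with the same number (r = 0.453, 0.325 and 0.742). Their numbers were taken as pairs, and the sources used here do not say what the pairs share. Libraries of unlike number were not compared, and deviations within a group sum to 0, so these r values do not establish the pairing. Same-numbered libraries of the other groups compared gave r from -0.320 to 0.228. Alternatives were other filters, no trend, robust estimation, recentring, the replicate block, library weights, marker covariates, only the groups compared, and leaving out libraries.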

Additional observations from a re-analysis of the deposited data

Results flagged for a closer look

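Within the 5EL and 5ELKO groups, 82 sets of library values (41 members in both groups) were examined for a library standing apart from the rest by Dixon's ratio of gap to range, and 4 exceeded its 95% critical value, where chance gives about 1 in 20. Rab3b in 5ELKO had a ratio of 0.890, with replicate 1 at 8.67 and the other 3 libraries at 9.12 to 9.17. Sv2a in 5EL had a ratio of 0.771, with replicate 3 at 13.66 and the others at 13.83 to 13.88. Unc13a in 5EL had a ratio of 0.724, again with replicate 3 lowest at 11.79 and the others at 12.05 to 12.16. Sncb in 5EL had a ratio of 0.754, with replicate 4 highest at 12.72 and the others at 12.60 to 12.63.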

How the results depend on the processing

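Under every alternative, 0 members reached an adjusted p under 0.05 in any of the 6 comparisons, and the median difference of the members moved by less than the within-group spread of that median among libraries (0.079). Counts at an unadjusted p did move. In the averaged 5xFAD effect (0 members) the count was 1 (2.44%) with no filter, with a stricter filter, without the trend and with robust estimation. In these 5.27% to 6.5% of all genes passed. It was also 1 with gene-by-gene library weights, where 11.9% of all genes passed. The replicate block on all 15 libraries gave 2 (4.88%, Snap25 and Rab3b), against 8.05% of all genes. With the habenula covariate the count was 2 (Syt6 and Sv2c), against 5.85% of all genes. Leaving out 1 library gave 0 to 7, the most without EL replicate 1, where 17.1% of members and 17.3% of all genes passed. In 5EL against EL (2 members) the count was 1 (2.44%) with robust estimation, with either the cortex and hippocampus or the habenula covariate or with only the groups compared. In these 3.65% to 7.48% of all genes passed. It was 0 with default library weights (1.34% of all genes) or without EL replicate 3 and ELKO replicate 3 (2.73%). Without 5EL replicate 1 and ELKO replicate 2 together it was 3 (7.32%, against 6.76% of all genes). These were Syt6, Synpr and Sv2c, with Snap25 no longer passing. The count was 7 with gene-by-gene weights (17.1%, where 20% of all genes passed), and 0 to 12 leaving out 1 library. In 5ELKO against 5EL it was 1 with the cortex and hippocampus covariate (2.44%, against 2.5% of all genes). Leaving out 1 library gave 0 to 1 there, with the 1 found without 5EL replicate 3 (1.6% of all genes). In ELKO against EL the count was 3 with the replicate block on that pair of groups (7.32%, against 7.04% of all genes). It was 7 there with gene-by-gene weights (17.1%, against 17.8% of all genes) and 0 to 9 leaving out 1 library. In the interaction it was 1 with the cortex and hippocampus covariate (2.44%, against 3.25% of all genes) and 3 with gene-by-gene weights (7.32%, against 11.4%). Leaving out 1 library gave 0 to 3 in the interaction, the most without EL replicate 1 (7.32%, against 7.78%). With the block on all 15 libraries the 5EL against EL count stayed at 2 (4.88%, against 9.5% of all genes). Sv2c no longer passed in that fit and Syt5 did (0.42, unadjusted p = 0.0413, limma). Beyond these, the block changed no call at an unadjusted p.

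The default library weights did not converge and gave EL replicate 2 a weight of 0.010. The gene-by-gene estimator was added after that was seen and gave the same library 4.73, so neither weighting settles these counts. Over all genes, 5EL against EL had 31 adjusted calls without EL replicate 1 and 135 with gene-by-gene weights, 0 of them members. The habenula covariate and the joint removal of EL replicate 3 and ELKO replicate 3 were also chosen after seeing the data.

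Averaged 5xFAD differences of single members changed sign as follows, and the cause was not tested. Without EL replicate 3 and ELKO replicate 3 together, Sv2c was -0.0016, Syt6 -0.17, Synpr -0.20, Syt2 -0.021 and Stx1a -0.041. With the cortex and hippocampus covariate, Syt6 was -0.11 and Synpr -0.069. With gene-by-gene weights Synpr was -0.032, and with the replicate block Syt2 was -0.062. Stx1a was -0.069 with default weights. Leaving out 1 library, Stx1a ran from -0.044 (without EL replicate 3) through -0.011 (without 5ELKO replicate 2) to 0.126, and Vamp2 from -0.043 to 0.0047 (without EL replicate 1).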
